A study of Mus musculus with 2 samples.

Results

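Immediate early genes are switched on within minutes of a signal, without new protein synthesis, and most of their mRNAs are short-lived. The 10 examined here were Fos, Fosb, Jun, Junb, Jund, Egr1, Ier2, Ier3, Dusp1 and Atf3. They were taken by symbol through the Ensembl gene identifier, and each matched a single row, so they make up 10 of the 43346 mouse genes and 18 of the 103639 transcripts in the deposited tables. The rule is a list of symbols and sets no threshold on a measured value, but the list was drawn up with earlier results of these data known.

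The cells were G1E-ER4, an immortalised mouse erythroid line described as male and postnatal, day 0. G1E cells carry a disrupted Gata1 gene, and in ER4 cells the erythroid transcription factor GATA1 is returned as a fusion protein. The fusion carries the part of the estrogen receptor that binds hormone, and estradiol thereby releases its activity and starts differentiation. All cells received 10 nM 17beta-estradiol for 3 h, and polyadenylated RNA was sequenced with paired ends. The 2 libraries, labelled biological replicates 1 and 2, form 1 group. Both name the same biosample record, and the SD between them may therefore be technical. Without an untreated or earlier library the values are levels in libraries labelled 3 h and not responses, and a response that began and ended before 3 h would not be seen. In bulk RNA, fewer cells with a transcript and less transcript per cell cannot be told apart.

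Fos and Jun proteins form the AP-1 transcription factor, in which Jun proteins pair with each other or with Fos proteins, while Fos proteins need a Jun partner. Kinases of the ERK, JNK and p38 pathways act on serum response factor with its ternary complex factors, on CREB and on AP-1 itself, and these bind short sites upstream of the early genes. The response ends through phosphatases such as the product of Dusp1, through corepressors, and through AU-rich elements in the 3′ UTR that speed the decay of the mRNA. In erythroid cells these genes lie downstream of the erythropoietin and stem cell factor receptors, which signal through ERK.

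Replicate 1 held 31126957 expected counts and replicate 2 held 57853617. Erythroid identity was clear, with all 10 erythroid markers at 1 TPM or more in both libraries. TPM is a gene's share of all transcripts, corrected for length and scaled to the same total in each library, and 1 TPM in both libraries is called detected below. Over all genes, 8777 of the 43346 mouse genes were detected. The libraries stood apart in the same markers. The alpha globin gene Hba-a1 had 148.8 TPM in replicate 1 and 6606 TPM in replicate 2, Hbb-bs had 863.1 TPM and 9484 TPM, and Gata1 had 190.3 TPM and 798.9 TPM. Others ran the opposite way: Klf1 had 786.1 TPM and 350.5 TPM, Zfpm1 had 2427 TPM and 1438 TPM, and Tal1 had 119.6 TPM and 79.1 TPM. By the count test described below, 3 of the 10 erythroid markers were higher in replicate 1 and 6 in replicate 2. Over all genes tested the shares were 37.4% and 43.3%, with 80.7% in either direction. Nothing particular to the markers is therefore drawn from these calls. For Gata1, transcripts of the fusion and of the cells' own gene were not told apart here. Both libraries carry the same 3 h label, and whether the cells had reached the same stage was not tested. Among markers of other cells, 0 of 6 macrophage, 0 of 6 granulocyte, 0 of 6 mast cell, 0 of 6 fibroblast and 0 of 5 pluripotency genes were detected. The megakaryocyte genes Gp1ba and Itga2b (2 of 6) and the lymphocyte gene Ptprcap were detected. The megakaryocyte list summed to 30.3 TPM in replicate 1, against 83.6 TPM in replicate 2, and the granulocyte list to 2.56 TPM and 0.35 TPM. Ptprcap had 231.9 TPM in replicate 1 and 145.0 TPM in replicate 2, while Cd3e, which defines T cells, had no count. The T cell gene Lck ran the opposite way to Ptprcap, with 7 counts and 0.25 TPM in replicate 1 and 58 counts and 2.17 TPM in replicate 2. Cd79a had 23 and 16 counts, and Cd3g had 0 and 3. The mitochondrial genome held 0.657% of the counts in replicate 1 and 0.323% in replicate 2. The part of these differences in the values of the early genes was not tested, and each value is therefore given for each library.

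The sequences that early signals reach are shown for 4 members that span the measured range: Junb, the highest, Dusp1 and Fos, which are described by transcript below, and Atf3, which had no count. RefSeq promoter windows on GRCm38.p6, running from 250 bases upstream of the annotated start to 50 bases into the gene, were matched for 8 of the 10 members. Egr1 and Ier2 had no window. Capitals mark the core of the cAMP response element (TGACG, or CGTCA when it reads on the other strand), the AP-1 site, the CArG box bound by serum response factor, and TATAA on the sense strand. The windows are chr8:84978699-84978998 for Junb, chr17:26508423-26508722 for Dusp1 and chr1:191183284-191183583 for Atf3, all on the minus strand, and chr12:85473640-85473939 on the plus strand for Fos.
Junb promoter: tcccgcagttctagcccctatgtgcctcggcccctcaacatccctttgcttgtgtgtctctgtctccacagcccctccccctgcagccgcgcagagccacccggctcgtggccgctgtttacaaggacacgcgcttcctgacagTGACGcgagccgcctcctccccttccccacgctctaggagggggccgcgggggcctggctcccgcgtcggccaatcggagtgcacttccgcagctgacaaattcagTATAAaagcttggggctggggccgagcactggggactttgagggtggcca
Dusp1 promoter: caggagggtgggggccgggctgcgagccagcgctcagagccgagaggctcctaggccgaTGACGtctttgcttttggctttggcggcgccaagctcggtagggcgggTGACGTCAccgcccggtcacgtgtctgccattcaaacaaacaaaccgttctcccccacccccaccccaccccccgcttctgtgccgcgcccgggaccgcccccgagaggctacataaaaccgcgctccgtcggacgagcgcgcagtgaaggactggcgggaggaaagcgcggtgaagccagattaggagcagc
Fos promoter: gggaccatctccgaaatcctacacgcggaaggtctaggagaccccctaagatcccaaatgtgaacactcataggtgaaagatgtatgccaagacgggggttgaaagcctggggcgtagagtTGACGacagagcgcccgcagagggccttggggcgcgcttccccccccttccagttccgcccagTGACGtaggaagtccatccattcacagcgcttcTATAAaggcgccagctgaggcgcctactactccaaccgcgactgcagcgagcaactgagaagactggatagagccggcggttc
Atf3 promoter: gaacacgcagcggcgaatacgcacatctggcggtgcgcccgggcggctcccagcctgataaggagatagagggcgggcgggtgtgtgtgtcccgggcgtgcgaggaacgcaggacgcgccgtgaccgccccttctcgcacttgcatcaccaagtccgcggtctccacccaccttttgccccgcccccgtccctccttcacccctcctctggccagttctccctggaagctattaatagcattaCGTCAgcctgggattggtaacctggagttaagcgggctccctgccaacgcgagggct

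The CRE core lay in 5 of the 8 windows, in Junb, Dusp1, Fos, Fosb and Atf3, against 20.8% of the 32851 windows in the table. The full palindrome TGACGTCA, which contains the core on both strands, lay only in Dusp1 among the 8, 143 bases upstream of the RefSeq start, against 1.79% of all windows. Fos carried CRE cores 129 and 66 bases upstream and TATAA 33 bases upstream. TATAA lay in 3 of the 8, against 17.5% of all windows. Measured from the start of the GENCODE M21 transcript it stood 33 bases upstream in Fos, 30 in Junb and 29 in Ier3. In the Junb window the capitals therefore begin at the RefSeq start itself, which lies 30 bases further upstream. AP-1 sites (TGANTCA) and CArG boxes, searched on both strands, matched in 0 of the 8 windows, against 7.81% and 1.63% of all windows. Other forms of these sites were not searched. The Jun window, for example, holds TGACATCA, which the pattern TGANTCA does not match. Sequence outside the windows was not searched either, nor were Egr1 and Ier2. A lack of sites in the early genes therefore cannot be read from this. The GATA site AGATAA, searched on both strands, matched in Jun only, against 11.2%, and the EGR site GCGNGGGCG, searched the same way, in Fosb only, against 5.55%. The RefSeq start of Jund lies 1210 bases upstream of the GENCODE M21 start, so the Jund window does not show the sequence next to the M21 start. The CRE core thus lay in the window of the highest member and in that of the member with no count. A match describes the letters and is not evidence of binding.

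The AU-rich pentamer ATTTA occurred in the 3′ UTR of 9 of the 10 members, Ier2 being the one without it, against 60.7% of 7665 detected genes. The longer TATTTAT, which contains the pentamer, occurred in 7 of the 10, against 24.0% of those genes. Density was highest in Ier3, with 5 pentamers and 8.16 per kb, followed by Dusp1 with 5.80, Fos with 4.91 and Junb with 4.12 per kb, against a median of 1.04 per kb over the detected genes. Fosb had the lowest density among the 9, 0.466 per kb. The sites below are 30 bases of the sense strand from GENCODE M21 on GRCm38, with each pentamer in capitals. They lie at chr17:35822484-35822513 (plus strand) in Ier3, chr17:26506157-26506186 (minus) in Dusp1, chr12:85477100-85477129 (plus) in Fos and chr8:84977127-84977156 (minus) in Junb. In Dusp1 and Fos adjoining pentamers overlap by a base.
Ier3 3′ UTR site: ctaattaatATTTAtgtATTTAtgtatatc
Dusp1 3′ UTR site: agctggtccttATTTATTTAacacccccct
Fos 3′ UTR site: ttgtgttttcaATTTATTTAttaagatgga
Junb 3′ UTR site: aatatatttgtgtATTTAacagggagggga

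The members ran from a moderate level to undetected. Junb, Ier2, Jund and Egr1 were at 10 TPM or more in both libraries. Among genes that reached 1 TPM, these 4 stood above 66.6% to 79.6% in replicate 1 and 57.3% to 67.3% in replicate 2. Ier3, Dusp1 and Jun were lower but detected, and Fos, Fosb and Atf3 were not detected in both. Of the 10, 7 were detected, against 8777 of all 43346 mouse genes. The median member stood at 7.76 TPM in replicate 1, against 8.80 TPM in replicate 2, and the members summed to 234.3 TPM and 137.0 TPM. The top 4 held 90.4% of that sum in replicate 1 and 83.0% in replicate 2.

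**Figure D1:**
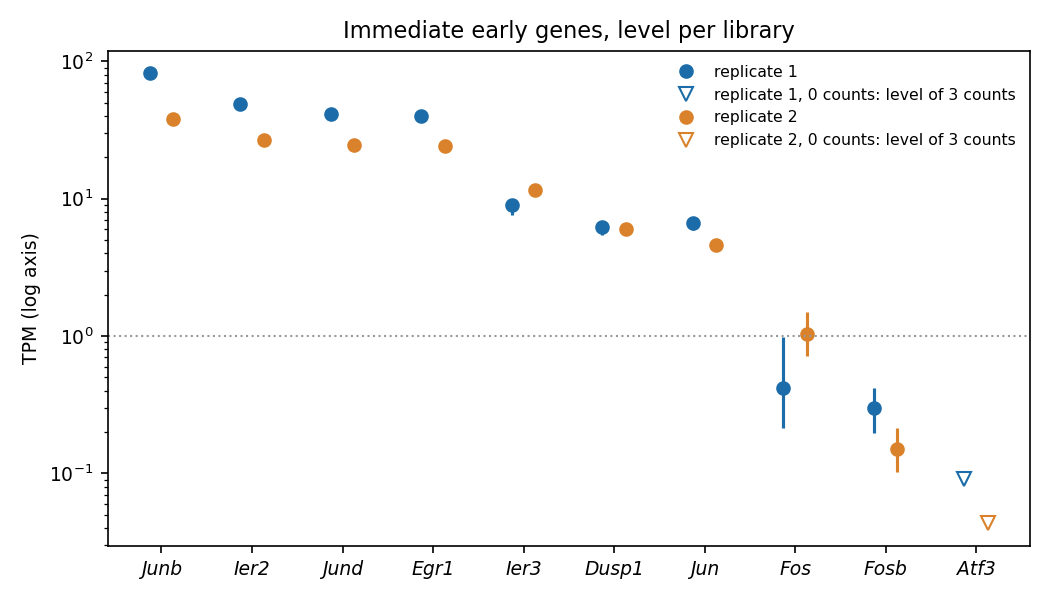
TPM of each immediate early gene on a log axis, with replicate 1 in blue and replicate 2 in orange. Vertical lines are the interval that the authors' quantification gives for each library, open triangles show the level that 3 counts would give for Atf3, which had 0, and the dotted line is 1 TPM; 4 genes lie above 20 TPM in both libraries while Fos lies at 0.42 and 1.04 TPM and Fosb at 0.30 and 0.15 TPM.

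Jun genes supplied nearly all transcripts of the Jun and Fos families. Junb encodes a Jun protein that has been tied to erythroid differentiation and that activates more weakly than c-Jun. Its single transcript (chromosome 8, 84976910 to 84978718, minus strand, in GENCODE M21, as are the positions of the other members) had 3448 expected counts and 81.6 TPM in replicate 1, and 3351 counts and 37.9 TPM in replicate 2 (59.7 ± 30.9 TPM, SD, n = 2). By the lengths that the authors counted, it was the highest member in each library, above 79.6% and 67.3% of the genes that reached 1 TPM there. Jund, the Jun gene that is widely expressed without a stimulus (chromosome 8, 70698949 to 70700616, plus strand) had 2804 counts and 41.2 TPM in replicate 1 and 3522 counts and 24.7 TPM in replicate 2 (32.9 ± 11.7 TPM, SD, n = 2). Both genes were higher in replicate 1. The TPM of Jund rests on a counted length of 2878 bases, where GENCODE M21 gives 1668 bases for its transcript. Its place below Junb and Ier2 and its share of the Jun family therefore depend on that length. TPM over the M21 model was not computed. Jun, which encodes c-Jun, the main substrate of the JNK kinases (chromosome 4, 95049034 to 95052222, minus strand), was far lower than its relatives, with 500 counts and 6.60 TPM in replicate 1 and 727 counts and 4.57 TPM in replicate 2 (5.58 ± 1.44 TPM, SD, n = 2). Its highest library lay below the lowest library of both Junb and Jund.

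Fos, the partner of Jun whose induction is the classic mark of a fresh stimulus (chromosome 12, 85473890 to 85477273, plus strand), was close to the limit of detection. It had 7 counts and 0.42 TPM in replicate 1 and 58 counts and 1.04 TPM in replicate 2, so it passed 1 TPM in replicate 2 only. Fosb, a relative with the same role (chromosome 7, 19302696 to 19310051, minus strand), had 27 counts and 0.30 TPM in replicate 1 and 29 counts and 0.15 TPM in replicate 2. The other Fos relatives were low as well, Fosl1 at 0.41 TPM and 0.42 TPM and Fosl2 at 0.11 TPM and 0.02 TPM.

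Summed over the family, Jun, Junb and Jund reached 129.4 TPM in replicate 1, against 67.1 TPM in replicate 2, while Fos, Fosb, Fosl1 and Fosl2 reached 1.24 TPM and 1.63 TPM. The Jun family was thus 104.4 times the Fos family in replicate 1 and 41.2 times in replicate 2. Junb held 63.1% of the Jun family in replicate 1 and 56.5% in replicate 2, with 31.9% and 36.7% for Jund and 5.10% and 6.81% for Jun. By expected counts, which are not corrected for length, Junb held 51.1% in replicate 1 but less than Jund in replicate 2, at 44.1% against 46.3%. Within the small Fos family, Fos held 33.9% in replicate 1 and 63.8% in replicate 2, and Fosb 24.2% and 9.20%.

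**Figure D2:**
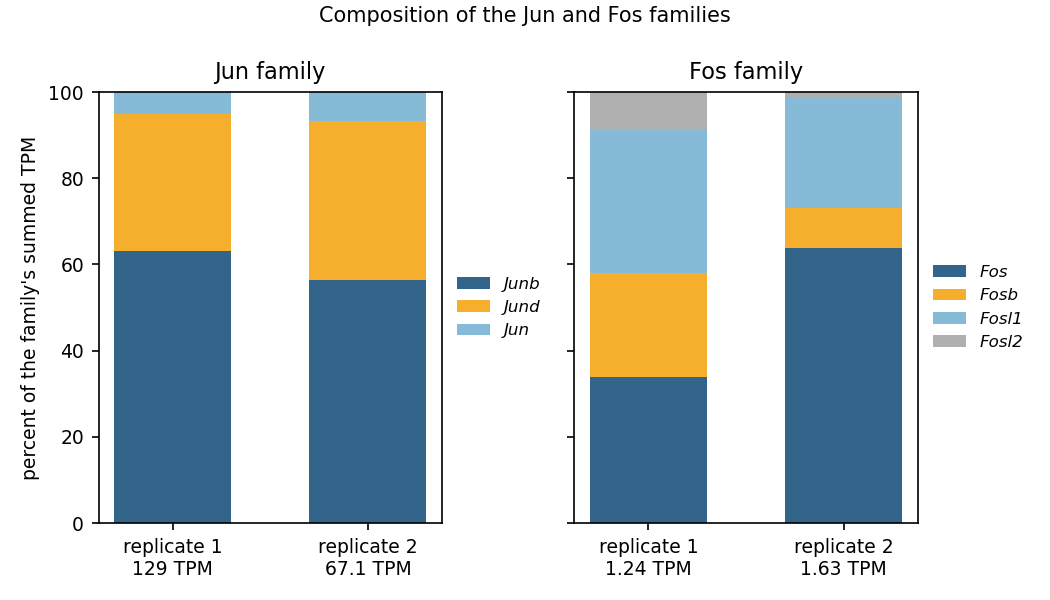
Share of each gene in the summed TPM of the Jun family (left) and the Fos family (right), as stacked bars of percent for replicate 1 and replicate 2, with the family's summed TPM under each bar. By the lengths that the authors counted, Junb is the largest part of the Jun family in both libraries, and the Fos family stays below 2 TPM.

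Atf3, a stress-induced bZIP repressor (chromosome 1, 191170296 to 191218039, minus strand), had 0 counts in both libraries over its 3 listed transcripts. A count of 0 allows up to 3 counts, which would correspond to 0.0908 TPM in replicate 1, against 0.0435 TPM in replicate 2. The authors' interval, which covers the uncertainty of their assignment of reads, reached 0.361 TPM and 0.180 TPM.

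The other factors were led by Ier2 and Egr1. Ier2, a small nuclear protein of the early response (chromosome 8, 84661331 to 84662852, minus strand), had 1684 counts and 49.0 TPM in replicate 1 and 1923 counts and 26.8 TPM in replicate 2 (37.9 ± 15.7 TPM, SD, n = 2). Egr1, a zinc finger factor known to restrain the cycling of blood stem cells (chromosome 18, 34859823 to 34864984, plus strand), had 3885 counts and 40.1 TPM in replicate 1 and 4959 counts and 24.4 TPM in replicate 2 (32.2 ± 11.1 TPM, SD, n = 2). Both were higher in replicate 1. Egr1 had more counts than Junb in both libraries, with longer transcripts, of 4484 and 3036 bases against 1840 bases for Junb. It stood alone in its family, since Egr2 had 0.10 TPM and 0.07 TPM, and Egr3 and Egr4 had 1 count each in replicate 1 and 0 in replicate 2.

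Ier3, a regulator of survival under stress (chromosome 17, 35821684 to 35822923, plus strand), had 220 counts and 8.92 TPM in replicate 1 and 596 counts and 11.6 TPM in replicate 2 (10.3 ± 1.91 TPM, SD, n = 2). It was the only detected member with the higher TPM in replicate 2. Dusp1, a nuclear phosphatase that inactivates p38, JNK and ERK (coding transcript on chromosome 17, 26505590 to 26508519, minus strand), had 318 counts and 6.18 TPM in replicate 1 and 584 counts and 5.98 TPM in replicate 2 (6.08 ± 0.141 TPM, SD, n = 2). Its gene level was the closest between the libraries of the detected members.

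By the lengths that the authors counted, the order of the mean levels was Junb, Ier2, Jund, Egr1, Ier3, Dusp1, Jun, Fos, Fosb and Atf3. It was the same within each library, except that Jun stood above Dusp1 in replicate 1. The library values overlapped between Junb and Ier2, between Ier2 and Jund, between Jund and Egr1, and between Dusp1 and Jun, so values taken across libraries do not separate these neighbours. Within each library, however, Junb stood above Ier2, Ier2 above Jund and Jund above Egr1, and the authors' intervals of Junb and Ier2 did not overlap in either, running from 76.6 to 81.9 TPM and from 45.3 to 49.9 TPM in replicate 1 and from 36.1 to 38.6 TPM and from 25.2 to 27.6 TPM in replicate 2. The library values did not overlap at the step below Egr1, where the lower Egr1 library had 24.4 TPM and the higher Ier3 library 11.6 TPM, nor at the step below Jun, where the values were 4.57 TPM for Jun and 1.04 TPM for Fos. Since the same 2 libraries stand behind both genes of a pair, an exact sign-flip permutation test cannot go below p = 0.5, and none was run.

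Of the 18 transcripts, 12 had a count, and 6 members have a single listed transcript. The transcript with the largest share was the same in both libraries in every member with a count but Dusp1. The gene level of Dusp1 was close between the libraries, but its transcripts were not. ENSMUST00000025025.6, the protein-coding transcript, held 31.5% of the gene in replicate 1 and 91.9% in replicate 2, with 1.95 TPM and 5.49 TPM. ENSMUST00000126178.1, annotated as a retained intron, held 68.5% in replicate 1 and 8.12% in replicate 2, with 4.23 TPM and 0.49 TPM. The authors' intervals for the retained-intron transcript ran from 3.20 to 4.93 TPM in replicate 1 and from 0.166 to 1.09 TPM in replicate 2 and did not overlap, nor did those of the coding transcript, from 1.11 to 2.90 TPM and from 4.54 to 5.98 TPM. In counts, the retained-intron transcript took 228.6 of the 318 fragments in replicate 1 and 55.0 of the 584 in replicate 2.

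The sequence that separates these transcripts is intron 2 of 3 of the coding transcript, which the other keeps. It is 369 bases long, at chr17:26507205-26507573 on the minus strand of GRCm38, and lies within the gene body. Its boundaries are printed with 20 bases of exon in lower case and 20 bases of intron in capitals, at chr17:26507554-26507593 for the donor and chr17:26507185-26507224 for the acceptor.
Dusp1 intron 2 donor: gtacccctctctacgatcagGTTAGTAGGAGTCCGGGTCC
Dusp1 intron 2 acceptor: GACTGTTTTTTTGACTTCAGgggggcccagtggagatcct

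The libraries did not differ in this way at large. Transcripts annotated as retained introns held 12.7% of all TPM in replicate 1 and 13.3% in replicate 2. Over the 3725 genes that list such a transcript beside another kind and reached 1 TPM in both libraries, the median share was 3.00% and 3.23%, with 1632 genes above in replicate 1 and 1677 above in replicate 2. A share higher in replicate 1 by as much as in Dusp1 was found in 47 genes, Dusp1 included, or 1.26%, and a difference of that size the other way in 39. The deposited tables hold estimates for transcripts and not reads over the intron, so reads across these boundaries were not analysed here.

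Egr1 kept its composition. ENSMUST00000064795.5, its longer coding transcript, held 69.9% in replicate 1 and 69.2% in replicate 2, and ENSMUST00000165033.1, which begins 1384 bases further downstream, held 30.2% and 30.8%. In Fos, most of the few fragments were not assigned to the coding transcript in replicate 1. Fos-202, a processed transcript of 631 bases inside the gene, held 87.9% in replicate 1 and 60.2% in replicate 2, and the coding Fos-201 held 12.1% and 39.8%. These shares are corrected for length and rest on few fragments. Fos-202 had 4.52 fragments in replicate 1 and 15.7 in replicate 2. Its authors' intervals were wide, from 0.000499 to 0.699 TPM and from 0.184 to 0.996 TPM. By the posterior mean TPM, another estimate that the authors give, its share was 56.9% and 53.1%. Fos-201 had 2.48 fragments in replicate 1 and 42.3 in replicate 2, so in replicate 2 it took most of the fragments. Its level was thus 0.05 TPM and 0.41 TPM, with authors' intervals of 0.0073 to 0.154 TPM and 0.283 to 0.557 TPM, below the gene total of Fos in both libraries.

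**Figure D3:**
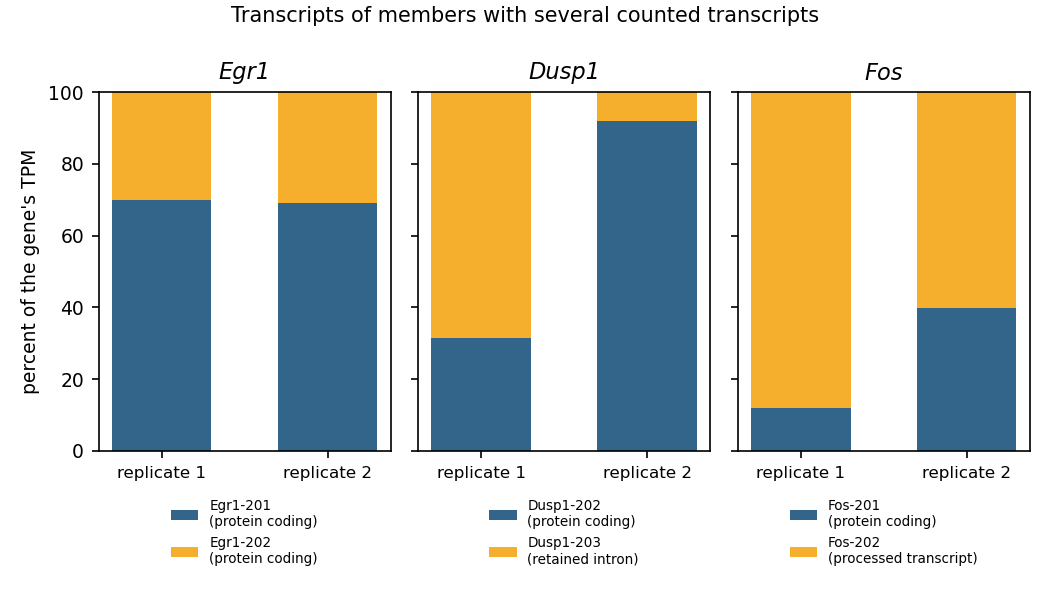
Percent of each gene's TPM held by its transcripts in replicate 1 and replicate 2, as stacked bars, for the members with more than 1 counted transcript. Egr1 has the same split in both libraries, while the retained-intron transcript of Dusp1 (yellow) stands at 68.5% in replicate 1 and 8.12% in replicate 2.

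Counts scaled with TMM factors were compared between the libraries in an exact conditional binomial test per gene with Benjamini-Hochberg adjustment over 10635 genes at 0.05. The test compares these libraries and measures counting noise only, so a call is not a difference between conditions. Of the 9 members tested, 7 were beyond counting noise, against 80.7% of all genes tested, a share near the background. Those higher in replicate 1 numbered 5, against 37.4% of all genes, and those higher in replicate 2 numbered 2, against 43.3%. The direction of the background depends on the scaling: 46.4% of all calls were higher in replicate 1 with TMM factors and 55.3% with total counts, while the members' counts were 5 and 2 under both. A difference of at least 2-fold was found in 1 member, against 26.5% of all genes. The median log2 ratio, replicate 1 over replicate 2, was 0.37 over the 9 members and -0.06 over all genes tested. On the TPM scale the median over all genes was 0.32, so TPM ratios run higher in replicate 1 than ratios of scaled counts.

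Junb was 1.70-fold higher in replicate 1 on scaled counts, with a log2 ratio of 0.76 and a 95% counting interval of 0.69 to 0.83 (adjusted p = 9.34e-104, exact conditional binomial test). Ier2 was 1.44-fold, Jund 1.31-fold and Egr1 1.29-fold higher in replicate 1, all 3 beyond counting noise. The 4 highest members thus shifted the same way between the libraries, by 0.37 to 0.76 on the log2 scale. Jun was 1.13-fold higher in replicate 1 (adjusted p = 0.0395, exact conditional binomial test), a call lost when genes with low counts were kept in the adjustment (adjusted p = 0.0557, the same exact test).

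Ier3 and Fos ran the other way. Ier3 was 1.64-fold higher in replicate 2, with a log2 ratio of -0.71 (adjusted p = 1.61e-10, exact conditional binomial test). Fos was 4.31-fold higher in replicate 2, the only member past 2-fold, with a log2 ratio of -2.11 and a wide counting interval of -3.71 to -1.20 (adjusted p = 3.30e-06, exact conditional binomial test). For Dusp1 the log2 ratio was -0.15 with an interval of -0.36 to 0.04 (adjusted p = 0.153, the same exact test), and scaled by total counts the ratio turned to 0.017. For Fosb the log2 ratio was 0.58 with an interval of -0.19 to 1.43 (adjusted p = 0.151, the same exact test), so a difference between the libraries was not detectable at this depth.

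**Figure D4:**
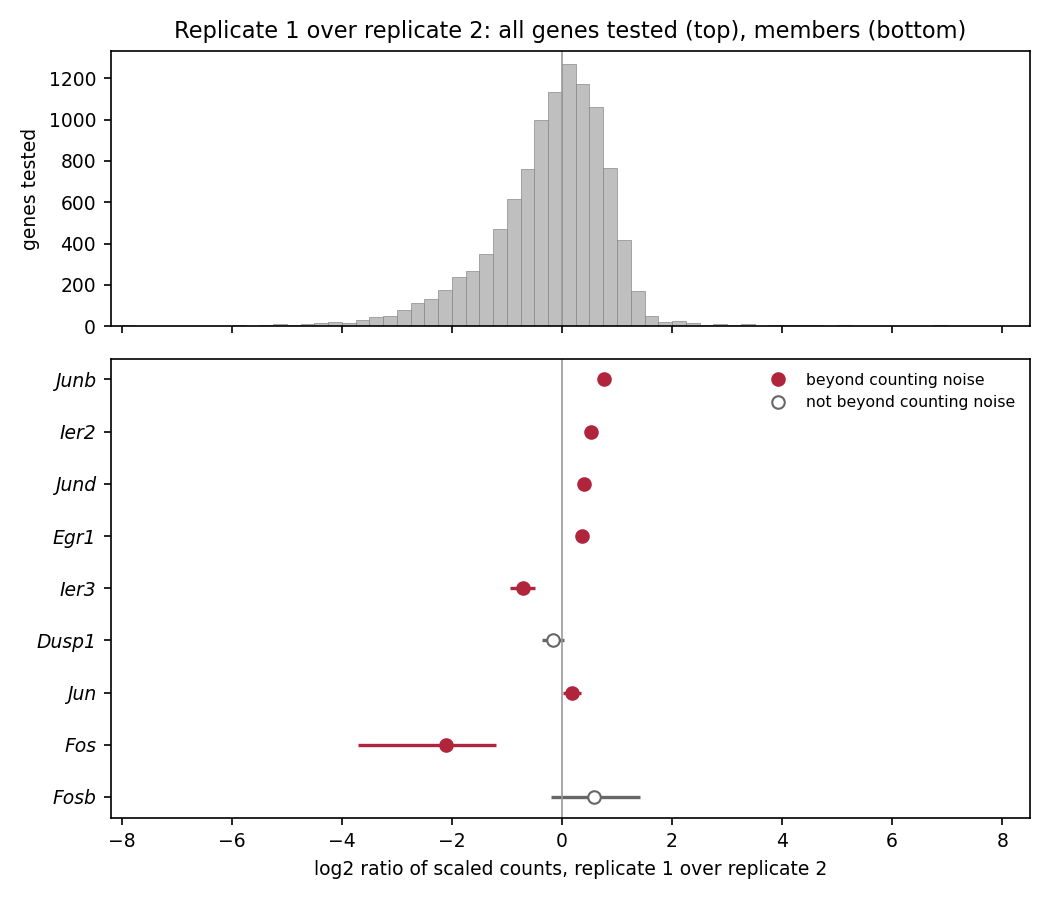
Log2 ratio of scaled counts, replicate 1 over replicate 2, for all 10635 genes tested (histogram, top) and for the 9 members with enough counts (bottom), with 95% counting intervals as lines. Filled red points are beyond counting noise and open points are not; Fos lies at -2.11 and the other members between -0.71 and 0.76.

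Whether the counting used strand is not given in the sources used here, so genes that overlap the members are listed with their counts. In GENCODE M21 the antisense gene Prdx2, with 560 counts in replicate 1 and 4405 in replicate 2, overlaps the far end of the Junb gene but not Junb-201, the transcript counted here. Junos, antisense to Jun, had 5 and 3 counts, and Gm11175, antisense within Jund, had 2 and 0. Ergic1, with 1131 and 3676 counts, overlaps only a distant upstream model of Dusp1. For 15 of the 18 transcripts the length counted by the authors equals that of GENCODE M21. The exceptions are Junb-201, Fosb-201 and Jund-201, and the last was counted over 2878 bases where M21 gives 1668.

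Transcripts of most genes for the machinery upstream of the early genes were detected, while its proteins and their activity were not measured. The calls in the lists that follow are read against the shares over all genes tested. These were 80.7% in either direction, 37.4% higher in replicate 1 and 43.3% higher in replicate 2, and nothing particular to a list is drawn from the calls. Detection in the lists is read against the 8777 detected genes of all 43346 mouse genes. Of 20 genes of the ERK, JNK and p38 kinases, 19 were detected, led by Map2k2 at 472.7 TPM in replicate 1, against 316.9 TPM in replicate 2, Map2k3 at 265.9 TPM and 223.4 TPM, and Map2k4 at 232.3 TPM and 87.1 TPM, all of which encode kinases that activate MAP kinases. Map2k6 had no count. Beyond counting noise, 15 were higher in replicate 1 and 4 in replicate 2, out of 19 tested. Of 12 genes for serum response factor, its partners and CREB, 10 were detected, led by Atf1 at 198.4 TPM and 68.9 TPM, Srf at 87.3 TPM and 58.1 TPM, and the coactivator gene Ep300 at 52.6 TPM and 31.5 TPM, with 4 of 11 higher in replicate 1 and 6 higher in replicate 2. Mouse estrogen receptor genes were not detected, with 0 counts in replicate 1 and 4 in replicate 2 for Esr1, 0 and 1 for Gper1, and 0 in both for Esr2.

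Other early response genes ran from abundant to absent with many values in between, and some stood well above Junb, the highest member. Of 16 other early transcription factors, 6 were detected. Myc, which drives growth and division, had 324.3 TPM in replicate 1 and 467.2 TPM in replicate 2, Srf is given above, and Csrnp1 had 3.14 TPM and 4.92 TPM. Klf4 and Npas4 had no count, and of 8 tested 3 were higher in each replicate. Of 25 early genes that do not encode transcription factors, 16 were detected, led by Mcl1, an inhibitor of cell death, at 806.7 TPM and 286.0 TPM, and by Zfp36l1 and Zfp36l2, which encode proteins that bind AU-rich elements, at 169.3 TPM and 139.0 TPM and at 176.3 TPM and 92.4 TPM. Arc, Plk2 and Ccn2 had no count, and of 18 tested 9 were higher in replicate 1 and 4 in replicate 2. Btg2, an antiproliferative early gene chosen after its values were seen, had 1.47 TPM in replicate 1 and 27.1 TPM in replicate 2. Because of that choice, its direction is not a result about the list or the members. Of 11 other AP-1 and bZIP partners, 5 were detected, led by Mafk at 94.9 TPM and 86.5 TPM and Mafg at 40.8 TPM and 35.3 TPM, the small Maf partners of the erythroid factor NF-E2, and by Atf7 at 18.7 TPM and 10.3 TPM. Batf2 had no count, and of 7 tested 1 was higher in replicate 1 and 2 in replicate 2.

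The genes that end the response were unevenly expressed. Of 16 MAP kinase phosphatases and ERK feedback genes, 6 were detected, led by the Ras pathway inhibitors Spred2, at 95.0 TPM in replicate 1, against 57.5 TPM in replicate 2, and Spred1, at 24.4 TPM and 7.20 TPM, and by the ERK phosphatase Dusp7, at 20.1 TPM and 9.57 TPM. Dusp6, Dusp4 and Spry2 had no count, and of 8 tested 4 were higher in replicate 1 and 2 in replicate 2. Both EGR1 corepressors were detected and both were higher in replicate 1, with Nab1 at 50.8 TPM and 29.8 TPM and Nab2 at 8.28 TPM and 4.51 TPM. All 13 genes for binding of AU-rich elements and mRNA decay were detected, led by Hnrnpd at 947.2 TPM and 629.0 TPM and Khsrp at 336.8 TPM and 164.5 TPM, followed by Zfp36l1, with 7 higher in replicate 1 and 6 higher in replicate 2.

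**Figure D5:**
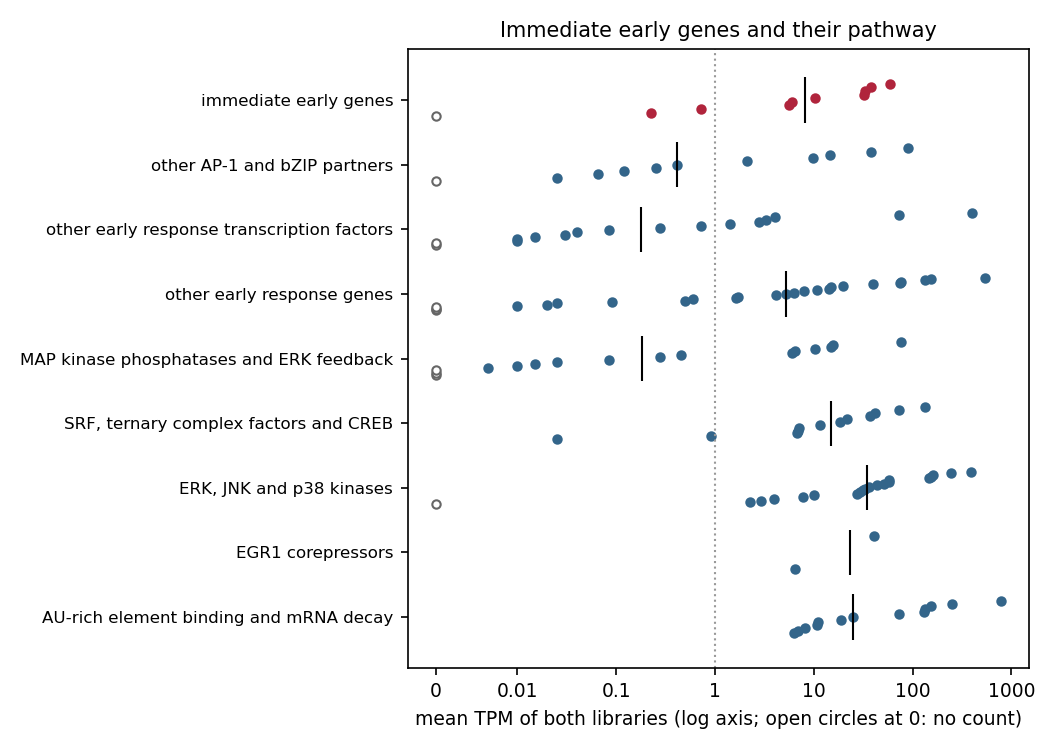
Mean TPM of both libraries on a log axis for the immediate early genes (red) and for 8 lists of their pathway (blue), with a vertical bar at each list's median, open circles for genes with no count and a dotted line at 1 TPM. The kinases and the decay genes lie almost wholly above 1 TPM, while the early genes spread on both sides of it.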

How the data were processed

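Per the text deposited with the tables, reads were aligned to mm10 and quantified on GENCODE M4 from transcriptome alignments, per replicate, with aligner and quantifier not given in the sources used here. The authors deposited expected counts (estimated fragments, not normalised), TPM with interval bounds, which are signal values on the TPM scale, and the percent of a gene's TPM that each transcript holds. Symbols, models and sequences came from GENCODE M21 and RefSeq; 42462 genes matched. Expected counts were rounded for the count test. With 1 library a side the quasi-likelihood test of edgeR leaves 0 residual degrees of freedom. Genes with a summed count of at least 20 therefore went into an exact conditional binomial test, two-sided, on TMM library sizes (edgeR 4.0.16, R 4.3.3, scipy 1.17.1), with Benjamini-Hochberg adjustment and a prior count of 2 in ratios. The code was tested on simulated data. Intervals and the limit of 3 counts cover counting error only: 3 counts are 9.64e-06% of replicate 1 and 5.19e-06% of replicate 2. Alternatives changed scaling, filter, prior count, estimator, threshold or left out a library. The members and lists were chosen with earlier results of these data known. Named were all members, the 3 highest genes of each pathway list, its genes with no count where at most 5, and, for the cell check, markers. Genes beyond this are the relatives of Fos, Jun and Egr1, overlapping genes and Btg2. Entries named by number, with 1 count and 0, and spike-ins were left out. Of the 6 lymphocyte markers, 1 is not reported here.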

Additional observations from a re-analysis of the deposited data

How the results depend on the processing

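Over 65 results, 183 values were recomputed and 172 kept their direction, their side of the threshold or their size within the spread. Some of these outcomes were fixed in advance, so the 172 do not measure robustness. A level or share in a single library always lies within the SD around the mean of the 2. The retained-intron share of Dusp1 thus counted as kept at 68.5% in replicate 1 and 8.12% in replicate 2. The prior count does not enter the p-values. The share of Junb in the Jun family averaged 47.6% by expected counts that are not divided by length. Junb-201 was counted over 1840 bases and Jund-201 over 2878 bases, where GENCODE M21 gives 1809 and 1668 bases. Dusp1 turned to a log2 ratio of 0.017 when scaled by total counts (adjusted p = 0.880, exact conditional binomial test; its range over the alternatives was 0.135 to 0.880), and it was called under none of the alternatives run. Jun lost its call without the filter on low counts (adjusted p range 4.13e-05 to 0.0557 over the alternatives, exact test). Other values that moved were the rescaled level of Dusp1 (6.59 TPM), the posterior mean of Atf3 (0.110 TPM), and 6 list counts. Scaling by total counts moved the median log2 ratio of all genes from -0.06 to 0.13 and left 5 members higher in replicate 1 and 2 higher in replicate 2. No paired analysis was possible because the 2 libraries form 1 group. Leaving out a library gave 7 to 8 detected members. The counts of Fos and Fosb limit their ratios.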
